A study of Mus musculus with 6 samples.

Results

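The *Nanog* neighbourhood on mouse chromosome 6 was taken as 1 stretch, from 60 kb before *Apobec1* to 60 kb beyond *Slc2a3* (chr6:122517792-122861640, mm10, 343.849 kb). It holds the 5 genes *Apobec1*, *Gdf3*, *Dppa3*, *Nanog* and *Slc2a3*, in this order. All peaks of the merged H3K56ac set that touched the stretch were members, which gave 12 of the 11106 peaks (0.108%). They are called P1 to P12 from the *Apobec1* side to the *Slc2a3* side.

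H3K56ac is histone H3 acetylated at lysine 56. Its distribution was measured by ChIP-seq in mouse embryonic stem cells (mESCs) of the line V6.5, kept undifferentiated on feeder cells with LIF. The cells carried a lentiviral scrambled shRNA (Scramble) or a single *Sirt6* shRNA (*Sirt6* KD). SIRT6 removes this acetyl group, and each group had 2 H3K56ac libraries and 1 input library. The deposited set gives positions of merged peaks of these 4 ChIP libraries, with no value per library and no read depth. Scramble and *Sirt6* KD could therefore not be compared, and no p-value is given. The paper's reporting summary lists more peaks for each *Sirt6* KD library than for either Scramble library, at a cutoff of its own. Some merged positions may thus have been called in *Sirt6* KD cells only, and the set does not say which.

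*Nanog* encodes a homeodomain transcription factor that sustains self-renewal of embryonic stem cells together with OCT4 and SOX2. Acetylated histone H3 marks active promoters and enhancers, and the *Nanog* locus is known in mouse embryonic stem cells for enhancers on both sides of the gene. The genes beside it do unlike work: *Gdf3* encodes a ligand of the TGF-beta family, *Dppa3* a maternal factor that protects DNA methylation in the early embryo, *Apobec1* a cytidine deaminase that edits apolipoprotein B RNA, and *Slc2a3* the facilitative glucose carrier GLUT3.

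Sequences are printed for the places on which the description turns, namely promoters with and without a peak and sites away from promoters. They were read from the GRCm38 reference 5′ to 3′, and capitals mark matches to the motifs searched. The *Nanog* promoter (chr6:122707239-122707488, plus strand) lies in P5, and its capitals are a SOX-OCT composite, read on the other strand as CATTGT, 1 base and ATGCAA. The *Dppa3* promoter (chr6:122626160-122626409, plus strand) had no peak, and the *Apobec1* promoter (chr6:122602445-122602694, minus strand) lies in P1 and holds a KLF motif, GGGTGTGG.
Nanog promoter: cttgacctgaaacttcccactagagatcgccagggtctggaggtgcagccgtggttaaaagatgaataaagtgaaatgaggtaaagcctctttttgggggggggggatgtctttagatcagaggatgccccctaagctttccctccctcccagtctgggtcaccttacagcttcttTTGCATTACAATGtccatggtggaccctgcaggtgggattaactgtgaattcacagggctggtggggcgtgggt
Dppa3 promoter: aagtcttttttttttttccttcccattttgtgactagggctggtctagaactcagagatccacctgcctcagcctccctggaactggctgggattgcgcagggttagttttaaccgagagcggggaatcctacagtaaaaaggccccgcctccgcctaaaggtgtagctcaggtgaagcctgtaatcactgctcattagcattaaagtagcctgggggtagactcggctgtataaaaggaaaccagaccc
Apobec1 promoter: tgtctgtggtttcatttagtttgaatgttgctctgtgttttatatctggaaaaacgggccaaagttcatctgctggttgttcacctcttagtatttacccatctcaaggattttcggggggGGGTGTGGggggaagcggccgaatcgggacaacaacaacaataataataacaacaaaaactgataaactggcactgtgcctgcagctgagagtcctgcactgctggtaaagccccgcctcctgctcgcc

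The next 4 come from P2 over *Gdf3* (chr6:122606811-122606939), from the intergenic P3 (chr6:122661462-122661590), from the centre of P4 upstream of *Nanog* (chr6:122702886-122703085) and from P8, the widest peak of the stretch (chr6:122763144-122763272), all on the plus strand. Capitals mark the ESRRB motif TCAAGGTCA on the minus strand in P2 and the STAT3 motif TTCCNGGAA in P3 and P8, while the centre of P4 held none of the motifs searched.
P2 window: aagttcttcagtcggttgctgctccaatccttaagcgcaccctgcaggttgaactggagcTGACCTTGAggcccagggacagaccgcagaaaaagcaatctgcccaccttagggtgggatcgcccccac
P3 window: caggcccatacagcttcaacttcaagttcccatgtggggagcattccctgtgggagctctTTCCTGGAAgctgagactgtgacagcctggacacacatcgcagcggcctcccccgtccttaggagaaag
P4 centre: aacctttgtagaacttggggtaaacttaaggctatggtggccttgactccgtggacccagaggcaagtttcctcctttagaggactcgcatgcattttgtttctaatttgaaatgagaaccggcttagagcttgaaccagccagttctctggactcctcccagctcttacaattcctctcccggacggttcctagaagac
P8 window: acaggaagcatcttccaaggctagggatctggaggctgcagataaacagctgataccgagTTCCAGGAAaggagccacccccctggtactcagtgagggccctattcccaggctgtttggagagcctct

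The 12 peaks were wide and lay close together. Together they covered 29445 bp, or 8.56% of the stretch, while all peaks covered 0.529% of the assembled chromosomes. There were 3.49 peaks per 100 kb in the stretch and 0.407 over the genome. The stretch was chosen around a gene known to be active in these cells, so these densities describe it and test nothing.

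Widths ran from 287 to 5397 bp with a median of 2590 bp (95% interval from order statistics 779 to 4077 bp), and the median of all peaks was 913.5 bp. No peaks of the set lay closer than 1000 bp, so widths may include joined neighbours. Of the 12, 9 were wider than that overall median. Peaks of at least 3 kb numbered 4 (33.3%, Wilson 95% interval 13.8 to 60.9%), where 6.83% of all peaks were this wide. These 4, namely P2, P3, P7 and P8, held 59.4% of the summed width. They lay over *Gdf3*, between *Dppa3* and *Nanog*, over the 5′ end of the main *Slc2a3* transcript and upstream of it. The broadest single peaks were thus not at *Nanog* itself, but P4 and P5 there fell just under 3 kb, at 2961 and 2924 bp. The intervals cover counting error only, and peaks of 1 locus are not independent of each other.

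**Figure D1:**
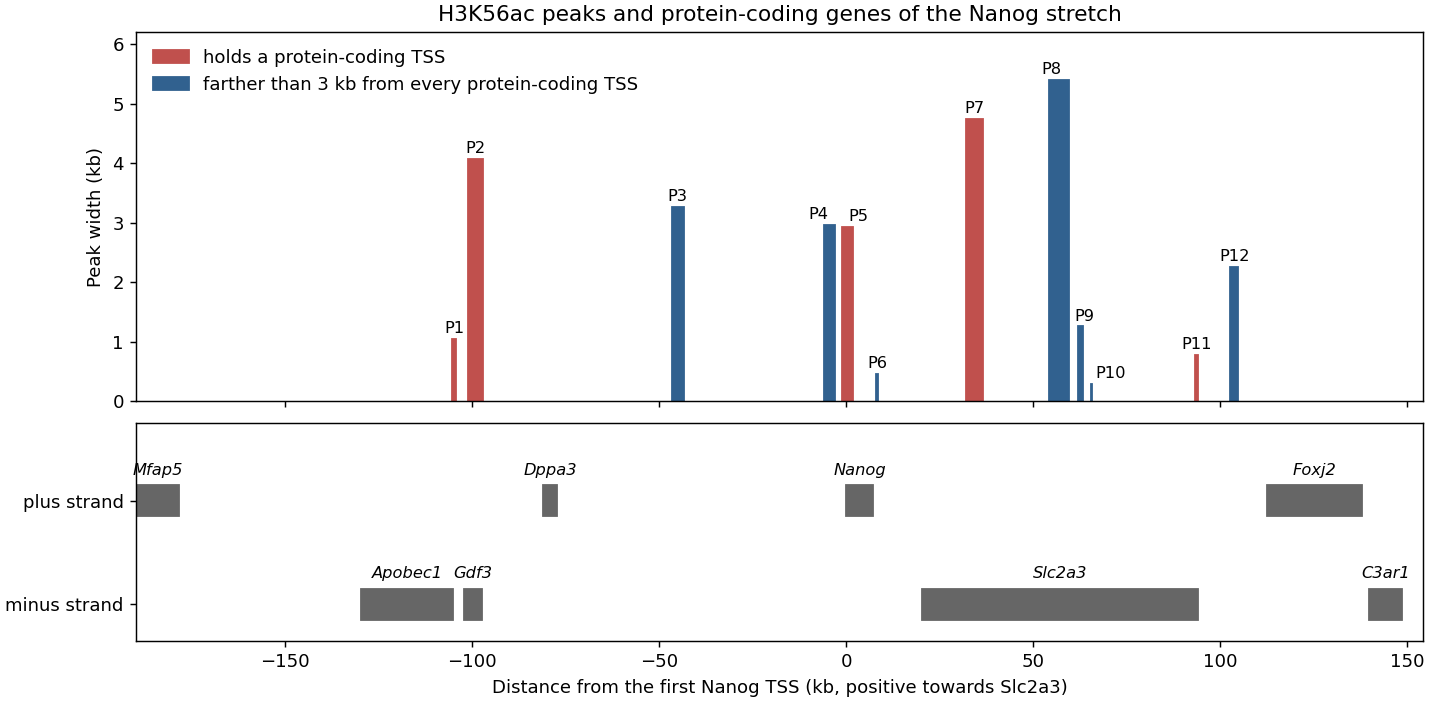
The upper panel plots each of the 12 peaks as a bar at its true position and width along the stretch (x axis, distance from the first *Nanog* TSS in kb), with the same width as height (y axis, kb). The lower panel shows the protein-coding genes described in the text by strand, and colours separate the 5 peaks that hold a protein-coding TSS from the 7 farther than 3 kb from one. The part left of P1, the part right of P12 and the body of *Dppa3* hold no peak.

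The peaks filled 210.194 kb of the stretch, from 122602154 to 122812347, and covered 14.0% of that span. The left 84.362 kb, from *Mfap5* to the body of *Apobec1*, and the right 49.293 kb, with all of *Foxj2* and *C3ar1*, were free of peaks. Outside, the next peak lay 114.596 kb to the left of P1, and 31.5% of the 11085 gaps between neighbouring peaks were at least this long. On the other side it lay 1601.86 kb beyond P12, a distance reached by 3.09% of gaps. This gap wholly contained 22 protein-coding genes, so P12 was the last peak of the neighbourhood before a long bare region. Many of these genes belong to the *Clec4* and *Vmn2r* families, and uniqueness of read starts was counted inside the stretch alone. Between the 12 peaks the 11 gaps ran from 1973 to 50499 bp with a median of 8443 bp, and the median over all gaps was 48966 bp.

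To see how often such a stretch occurs, 7917 windows of the same length were laid end to end. At least 12 peaks lay in 77 of them (0.973%, 0.779 to 1.21%), and 4409 held none. By bases under peaks the stretch stood higher, since 7 windows (0.0884%) were covered at least as far. At least 4 peaks of 3 kb or more lay in 9 windows (0.114%), and at least 7 peaks farther than 3 kb from every protein-coding TSS in 24 (0.303%). The neighbourhood was therefore less unusual by number of peaks, with up to 20 in a window, than by covered bases or peaks of at least 3 kb. Both of these measures also rise with the number of peaks, so they do not isolate width. Windows that overlap the stretch itself were kept.

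**Figure D2:**
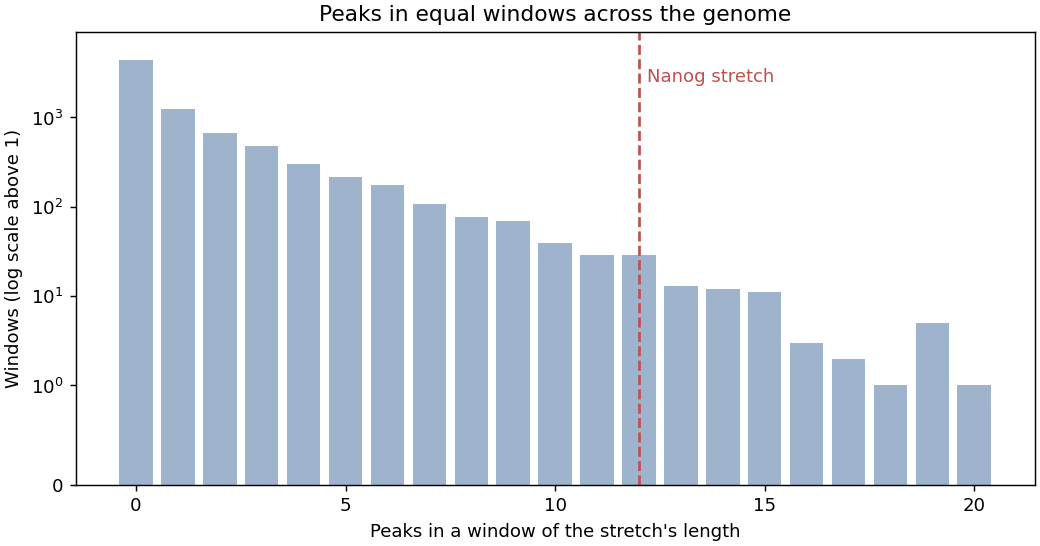
The bars count windows of the stretch's length (y axis, log scale above 1) by the number of peaks they hold (x axis). The dashed line marks the 12 peaks of the *Nanog* stretch, a number reached by 77 of 7917 windows.

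A TSS of a protein-coding gene lay inside 5 of the 12 peaks (41.7%), and 43.9% of all peaks held one. The other 7 (58.3%) had their midpoint farther than 3 kb from every such TSS, where 30.4% of all peaks did. These distal peaks had a median width of 2256 bp and held 53.9% of the peak width of the stretch, while distal peaks over the genome had a median of 638.5 bp and held 22.7%. The 5 peaks at a TSS had a median of 2924 bp, and those over the genome 1684.5 bp. Both kinds were thus wider here than their genome-wide medians, and the gap was larger for the distal ones.

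By a midpoint within 1 kb of a TSS, 3 of the 9 protein-coding genes of the stretch had a promoter peak, namely *Nanog*, *Apobec1* and *Slc2a3*, where 33.9% of 21938 genes had one. With any peak base within 1 kb it was 4, since the broad P2 over *Gdf3* has its middle in the gene, and 35.7% of all genes met this rule. A share of 3 or 4 in 9 is near this background, so the neighbourhood did not stand out by how many promoters carried a peak.

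*Nanog* (ENSMUSG00000012396.12, chr6:122707489-122714633, plus strand) had its promoter and first part under P5, 2924 bp wide (chr6:122706440-122709363). P5 held all 3 annotated TSS, reached from 1049 bp upstream to 1874 bp downstream of the first, and covered 26.2% of the gene. Of all peaks 7.30% were at least as wide, so the *Nanog* promoter peak was broad without being extreme.

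P4 (chr6:122701506-122704466) lay just upstream of *Nanog*, in intergenic sequence. Its midpoint was at -4.50 kb from the first TSS and its width of 2961 bp, reached by 7.04% of peaks, was almost that of P5. Only 1973 bp separated P4 and P5. If peaks closer than 3 kb are joined, they form 1 region of 7858 bp, which 1.09% of the 10220 joined regions reach.

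Beyond the 3′ end of *Nanog* lay 1 narrow peak. P6 (chr6:122715525-122715978) started 892 bp after the gene and was 454 bp wide, and 84.8% of all peaks were at least as wide. Counted over its body and 60 kb on either side, *Nanog* had 8 peaks, P3 to P10, a number that 2.11% of genes reach. They covered 16.7% of that region, which 20 of the 21938 genes (0.0912%) reach, *Nanog* among them. The median over genes was 1 peak and 0.745% covered. Of the 8 peaks, P7 to P10 touched the annotated body of *Slc2a3*, among them the wide P7 (4747 bp) and P8 (5397 bp). Neither the count nor the covered share therefore belongs to *Nanog* alone.

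*Dppa3* (ENSMUSG00000046323.8, chr6:122626410-122630272, plus strand) is the exception among the 5 genes. No peak touched its body or came within 1 kb of either TSS, and the nearest peak edge lay 16043 bp away, in P2 over *Gdf3*. Its body and 60 kb flanks still held 3 peaks, namely P1, P2 and P3, and 30.03% of genes had at least as many. Reads that map to more than 1 place were dropped by the authors, and 2.87% of read starts in the *Dppa3* body and 0.9995% within 1 kb of its start lacked a unique 75-base sequence. In the *Nanog* body this share was higher, 7.19%, and within 1 kb of the *Nanog* start it was 0%. The part of non-unique sequence in the missing *Dppa3* peak was not tested.

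Between *Dppa3* and *Nanog* stood the single peak P3 (chr6:122660867-122664131), 3265 bp wide, a width reached by 5.21% of peaks. It was intergenic, with its midpoint at -45.0 kb from the first *Nanog* TSS and 35746 bp from the nearer *Dppa3* TSS. P3 was isolated within the neighbourhood, with 50499 bp free on one side and 37374 bp on the other, and position alone does not assign it to either gene.

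*Gdf3* (ENSMUSG00000030117.5, chr6:122605403-122610087, minus strand) was the gene of the 5 most fully under a peak. P2 (chr6:122606291-122610367) was 4077 bp wide, a width reached by 2.31% of peaks, and covered 81.0% of the gene. It held both TSS and ended 280 bp beyond the outer one, so most of it lay over the transcribed part, and its middle fell in an intron, 1758 bp into the gene from the outer TSS and 1495 bp from the inner one. Its body and flanks held 3 peaks and were covered to 6.73%, which 5.28% of genes reach.

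*Apobec1* (ENSMUSG00000040613.14, chr6:122577792-122602444, minus strand) starts near *Gdf3*, and P1 (chr6:122602154-122603198) lay over its 5′ end, 3092 bp from P2. P1 was 1045 bp wide, a width that 44.4% of peaks reach. It held 6 of the 9 annotated TSS, with the midpoint 232 bp upstream of the outer one, and covered 1.18% of the gene. The remaining part of *Apobec1* was free of peaks, so the 5′ end was the one place in the gene with a called peak.

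*Slc2a3* (ENSMUSG00000003153.10, chr6:122727809-122801640, minus strand) was touched by 5 peaks, P7 to P11, which covered 16.9% of the annotated body. With its flanks it had 9 peaks, a number 1.12% of genes reach, and P4 and P5 at *Nanog* were among them. P7 (chr6:122739407-122744153) was 4747 bp wide, which 1.45% of peaks reach, and held 5 of the 8 TSS, among them that of the principal transcript at 122742745.

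P8 (chr6:122761798-122767194), P9 (chr6:122769494-122770746) and P10 (chr6:122772987-122773273) formed a cluster upstream of that principal TSS. Their midpoints lay 21.8, 27.4 and 30.4 kb upstream of it, and at 57.01, 62.6 and 65.6 kb from the first *Nanog* TSS. P8, at 5397 bp, was the widest of the stretch, and 0.900% of all peaks were at least as wide. P9 at 1253 bp and P10 at 287 bp were reached by 37.8% and 92.9% of peaks. The 3 peaks lay 2299 and 2240 bp apart, and joined at 3 kb they formed a region of 11476 bp, at rank 32 of 10220 (0.313%). They count as intronic only through long *Slc2a3* transcripts outside the basic annotation set. Without those transcripts P8 to P11 are intergenic, and 9 of the 12 peaks instead of 5 lie outside gene bodies.

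P11 (chr6:122800870-122801648) held the outermost *Slc2a3* TSS, that of such a long transcript, and its midpoint lay 58.5 kb upstream of the principal one. P11 was 779 bp wide. P12 (chr6:122810092-122812347) followed after 8443 bp, with 2256 bp of width, which 15.3% of peaks reach. Its midpoint lay 49 bp from the start of *Gm5112*, a transcript model without an assigned function, and 8695 bp upstream of *Foxj2*, which encodes a forkhead factor. It thus lay in no protein-coding gene and in the promoter of none.

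*Foxj2*, *C3ar1* and *Mfap5*, which also touch the stretch, had no promoter peak by either rule. The nearest peak edge was 7567 bp from a TSS of *Foxj2*. It was 43814 bp from *C3ar1*, a complement receptor, and 18288 bp from *Mfap5*, a microfibril protein. The marked part of the neighbourhood therefore began at *Apobec1* and ended between *Slc2a3* and *Foxj2*.

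**Figure D3:**
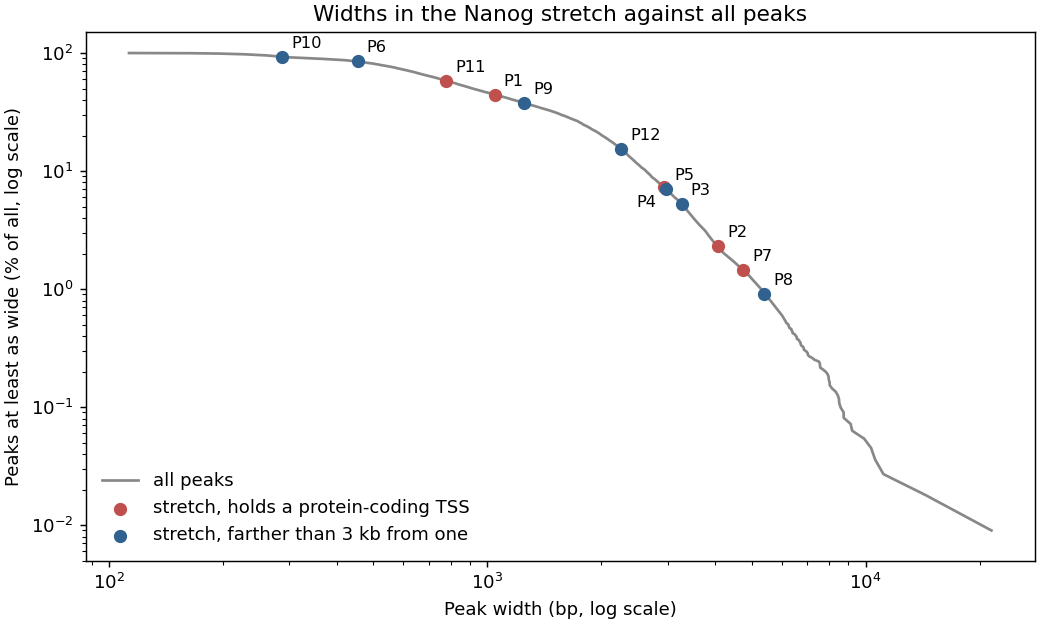
The grey line gives the percentage of all 11106 peaks (y axis, log scale) that are at least as wide as a given width (x axis, bp, log scale), and the 12 points are the peaks of the stretch. P8, P7 and P2 lie where 0.900%, 1.45% and 2.31% of peaks are as wide, while P10 and P6 are among the narrower ones.

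The share of CpG at the 5′ ends did not order these genes by peak. The ratio of observed to expected CpG, counted up to 500 bp from the 5′ end of the gene each way, exceeded 0.6 at *Slc2a3* (0.790) and *Foxj2* (0.802), of which *Slc2a3* had a peak there and *Foxj2* none. Over the genome 57.6% of such CpG-rich promoters had a peak midpoint within 1 kb. Of the 7 other promoters 2 had one, those of *Nanog* (0.287) and *Apobec1* (0.446), where 13.7% of the others did. *Dppa3*, without a peak, had a ratio of 0.445, much as *Apobec1* had, and at the principal *Slc2a3* TSS the ratio was 0.472.

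Within the peaks GC content ran from 42.9 to 52.1%, with a median of 48.1%, and the median of all peaks was 51.4%. The CpG ratio ran from 0.147 in P6 to 0.625 in P12 with a median of 0.329, between the median of all peaks, 0.510, and that of distal peaks, 0.261. Repeat-masked bases made up 0 to 33.1% of a member, highest in P4, with a median of 17.8%. This was above the median of all peaks, 9.84%, and that of distal peaks, 14.3%. Against the remainder of the stretch the peaks had more GC (48.6 against 44.7%) and fewer masked bases (22.6 against 39.6%). Read starts without a unique 75-base sequence made up 0.574% of the bases in peaks and 3.19% of those outside, and the longest run of them, 932 starts, began at 13.968 kb from the first *Nanog* TSS, in the gap between P6 and P7. GC, repeats and uniqueness thus moved with the peaks, and their part in where peaks were called was not tested.

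**Figure D4:**
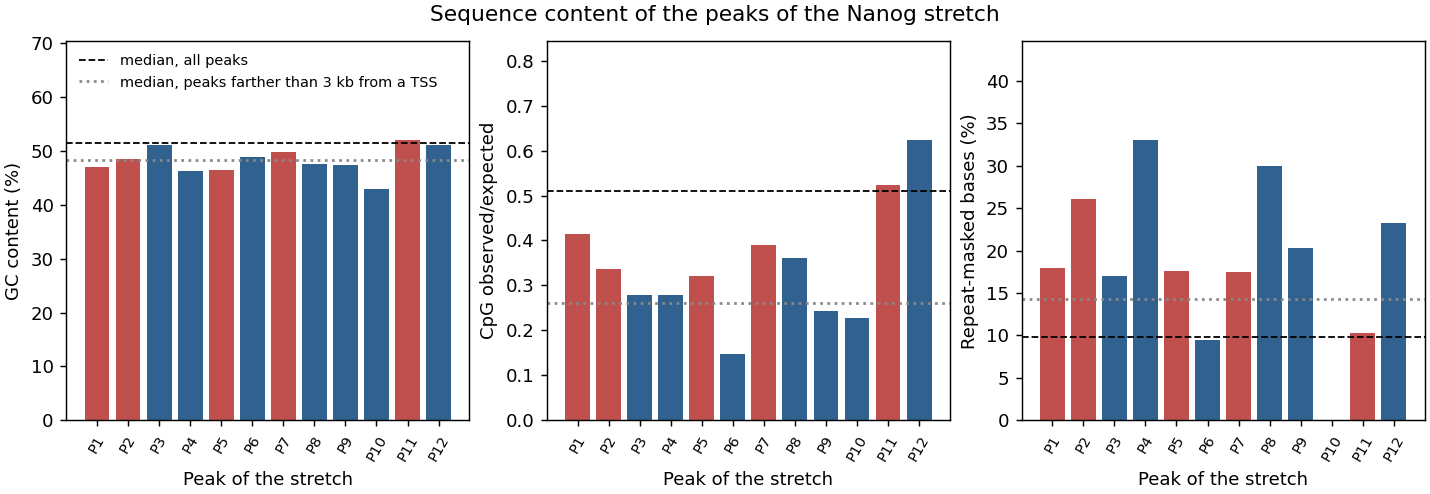
Bars give GC content (%), the CpG observed to expected ratio and repeat-masked bases (%) of P1 to P12, red where the peak holds a protein-coding TSS and blue otherwise. Dashed lines are medians of all peaks and dotted lines those of distal peaks; 11 of the 12 members lie below the GC median of all peaks, with P11 above it.

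Motifs of factors known in embryonic stem cells were searched on both strands. The octamer ATGCAAAT, bound by OCT4, was in the central 400 bp of none of the 12 peaks, and 1.5% of all peaks held it there. It was also absent from their whole length, where 0.435 matches per 10 kb in all peaks set the scale. A count of 0 over the 29445 bp of the members allows a count of up to 3. The SOX-OCT composite had 1 match, in P5, 74 bp upstream of the first *Nanog* TSS and 153 bp upstream of that of the principal transcript, as printed above. Over the genome 378 places matched, 4 of them in peaks, so 4 peaks (0.036%) held 1, and it was in 4 of 32851 RefSeq promoters (0.0122%). The motif was chosen with this *Nanog* element known, so its presence there is a description. The exact letters searched miss near matches.

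The ESRRB motif had 4 matches in the members (1.36 per 10 kb), the rest of the stretch 0.382 and all peaks 0.301 per 10 kb. Of the 4, 3 in P8 and P9 lay in repeat-masked sequence, and the 1 in P2, in an exon of *Gdf3*, did not. The KLF motif had 6 matches (2.04 per 10 kb, against 1.09 in all peaks), 3 in P2, 2 in P8 and 1 in P1, and the 3 outside P2 were masked. The STAT3 motif had 3 (1.02 per 10 kb, against 0.420), in P3, P8 and P12, none of them masked. With 14 matches in all, 6 of them in repeats, these densities rest on few places, and they were not tested. In the central 400 bp, 0 of the 12 members held the ESRRB motif, 0 the STAT3 motif and 1 the KLF motif. Of all peaks 1.01, 1.64 and 3.75% held these there.

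Among the 20 pluripotency genes listed, *Nanog* was second by number of peaks, with 8 against 9 for *Esrrb*, an orphan nuclear receptor of the same network. By covered share of body and flanks it came first, at 16.7%, with *Sox2* at 10.2% and *Klf4* at 10.1% next. The *Nanog* flank includes P7 to P10 in the annotated body of *Slc2a3*, so both ranks describe the region and not *Nanog* alone. Any peak base within 1 kb of a TSS was found for 19 of the 20, where 35.7% of all genes had one, and *Dppa3* was the 1 gene without. By midpoint it was 8 of 20, near the 33.9% of all genes, so the contrast with other genes rests on the wider rule. None of 10 fibroblast genes, listed for the feeder cells, had a promoter peak by either rule, and each had at most 1 peak in body and flanks.

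Relatives of the other genes differed among themselves. By the rule of any base, which 35.7% of all genes met, the counts rest on few genes. Of 6 TGF-beta ligands and antagonists, *Gdf3* among them, 4 had a promoter peak. *Lefty2*, a Nodal antagonist, had the most peaks in body and flanks, 6. Of 4 glucose carriers 2 had one, *Slc2a3* with 9 peaks in body and flanks and *Slc2a4* with 10, of which 1 touched its body. *Slc2a1*, the widely used carrier, had 3 peaks in body and flanks. None of them came within 1 kb of a *Slc2a1* TSS, but the nearest edge lay just outside that limit, at 1033 bp. *Slc2a2*, the carrier of liver and pancreas, had 0 peaks. *Apobec3*, a deaminase related to *Apobec1*, had a promoter peak and 10 peaks with its flanks, of which 2 touched its body. *Apobec2*, another relative, had no promoter peak and 1 peak with its flanks, and its nearest peak edge lay 21336 bp from a TSS. Of the 4 genes named *Dppa*, *Dppa3* lacked one and *Dppa2*, *Dppa4* and *Dppa5a* had it.

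The stretch was set beside 3 other core genes, each with 60 kb flanks. *Sox2* with 60 kb flanks (122.057 kb) had 4 peaks and was covered to 10.2%, most of it through 1 peak of 9909 bp at the gene, and its median width was 977 bp. *Pou5f1*, which encodes OCT4, had 3 peaks in 124.755 kb, covered 5.90%, with a widest peak of 6152 bp over the gene and a median of 941 bp. *Esrrb* had 9 peaks in 280.512 kb, covered 6.95%, the widest 7226 bp and the median 1249 bp. Per 100 kb there were 3.28 peaks at *Sox2*, 2.40 at *Pou5f1* and 3.21 at *Esrrb*, and 3.49 in the *Nanog* stretch, which is longer because it was built from 5 genes. The stretch had the highest median width of the 4 regions, and its widest peak was narrower than the widest at each of the other 3. These differences between single loci were not tested.

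**Figure D5:**
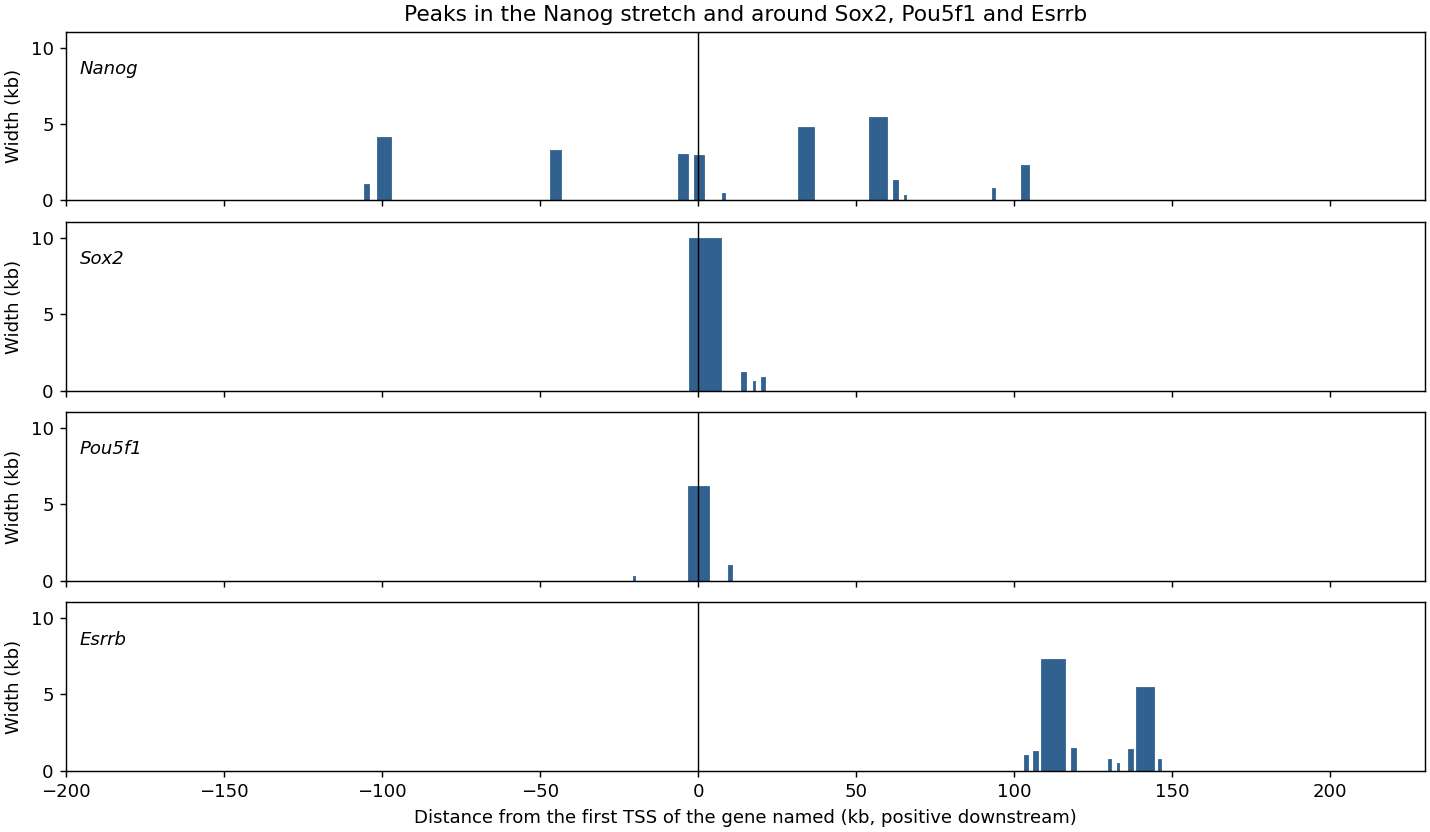
Peaks are drawn as bars with their width as height (y axis, kb) by distance from the first TSS of the gene named (x axis, kb, positive downstream), for the whole *Nanog* stretch and for *Sox2*, *Pou5f1* and *Esrrb* with 60 kb flanks. *Sox2* and *Pou5f1* have 1 dominant peak of 9909 and 6152 bp at the gene, the *Esrrb* peaks lie far downstream of its outermost annotated TSS, and the 12 peaks of the *Nanog* stretch lie on both sides of the TSS.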

How the data were processed

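Each group had 2 H3K56ac and 1 input library of single-end reads, 75 bases long by the methods and 80 by the reporting summary. The authors trimmed reads (Trim Galore), aligned them to mm10 with bowtie, kept reads with 1 reportable location and removed duplicates with Picard. MACS2 peaks outside the ENCODE blacklist were then merged where they overlapped (GenomicRanges). No deposited peaks were closer than 1000 bp, so near peaks may have been joined as well, which would raise widths and gaps and lower counts. The deposited file holds start and end positions, and its deposited score is constant and was not used. Keeping uniquely mapped reads alone can empty identical repeats. Depth, peak height and the library behind a peak are not given in the file, so no test was made.

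Starts counted from 0 were printed counted from 1. Genes and TSS came from GENCODE M21, and the sequence from GRCm38, the assembly behind mm10. The printed promoters were read by coordinates, and RefSeq promoters served for motif shares. Uniqueness counted exact 75-base sequences on both strands. Python 3.11.15, numpy 2.4.6, scipy 1.17.1 and pandas 2.3.3 were used, and motif search and joining were tested on simulated data.

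Named genes were all protein-coding genes of the stretch, plus listed relatives, pluripotency and fibroblast genes, and 1 of them is not reported here. Members, lists and motifs were chosen with earlier results of these data known, and the sequences shown after their values were seen. Alternatives covered the 60 kb reach, joining, promoter limits, transcripts, windows and read length.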

Additional observations from a re-analysis of the deposited data

How the results depend on the processing

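Of 26 alternatives 21 stayed within the limits set, which were 1.5 times for counts, the covered share and the non-unique share, and the interval of the value for the median width and the share of windows. Flanks of 30 and 100 kb gave 12 and 13 peaks, covered shares of 10.4 and 7.11% and median widths of 2590 and 2256 bp, and joining at 3 kb gave 9 regions. Joining at 12 kb, chosen after the data were seen, gave 6. Gene bodies from basic transcripts, also chosen afterwards, placed 9 peaks outside. Among windows with a protein-coding TSS, 1.36% held as many peaks, and by covered bases the share was 0.0884%. For 50-base reads 5.86% of read starts were not unique, and for 80-base reads, also added later, 2.62%. The octamer count was 0 under each of its 4 settings. No paired analysis was possible because the deposited set has no value per library. Depth and peak height are not given in the deposited file, so a missing peak says only that none was called.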
